A study of Mus musculus with 12 samples.

Results

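ERVK endogenous retroviruses other than the IAP and ETn groups were followed in RNA of the mouse embryonic stem (ES) cell line TT2. The members were the repeat names of the deposited repeat table with class LTR and family ERVK, leaving out names that begin with IAP, ETn, RLTRETN or MMETn. This gave 246 of the table's 1387 repeat names, and 30 ERVK names were left out. Of the 246, 231 passed a filter on low values (10 or more normalized reads in at least 3 libraries) and were tested. The other 15 stayed below it, with no library above 15.1 normalized reads. By name prefix, 13 members belonged to RLTR9, 23 to RLTR13, 2 to RLTR45 and 10 to RLTR10, which left 198 with other names. Internal parts (names ending in -int or _I) made up 32 members, and the other 214 were long terminal repeats (LTRs) or names without a stated part.

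An ERVK provirus is a retroviral copy in the genome, with internal sequence that once coded for viral proteins between paired LTRs that hold its promoter and enhancer. In mouse ES cells many such copies are kept silent by KRAB zinc finger proteins, which recruit TRIM28 and the histone H3 lysine 9 methyltransferase SETDB1, and by DNA methylation. The internal sequence MMERVK10C-int and its LTR RLTR10C are known targets of this silencing. Other ERVK LTRs are known as enhancers: RLTR9 elements carry binding sites of the pluripotency factors in ES cells, and RLTR13D5 acts in trophoblast stem cells.

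The study set a double knockout (DKO) of Rlf and Zfp292, genes that encode zinc finger proteins, against wild-type cells (WT). Both were sampled after 72 hours without LIF in medium with 5 µM retinoic acid (RA), which makes ES cells differentiate, and in the maintenance medium with LIF that the series calls serum/LIF. An effect of RA below is that of the whole change of medium, and RA and the loss of LIF cannot be told apart. There were 3 libraries in each of 4 groups: DKO after RA, WT after RA, DKO in serum/LIF and WT in serum/LIF. The labels call the 3 libraries biological replicates and do not say whether they came from separate clones, so the p-values measure only the spread between these libraries. A difference between clones cannot be told apart from an effect of the knockout.

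The libraries held 30869766 to 40236799 reads in genes and 2164824 to 3121854 in repeats, of which 73534 to 126239 fell in the ERVK members. Zfp292 was at 0 reads in all DKO libraries, and Rlf averaged 0.316 normalized reads in DKO after RA and 2.3 in DKO in serum/LIF, against 2611 in WT after RA and 3611 in WT in serum/LIF. All 5 ES cell markers (Pou5f1, Nanog, Sox2, Esrrb and Zfp42) were present: their sum per library was 5571 to 6088 normalized reads in DKO and 3567 to 3705 in WT after RA, and 88440 to 90565 in DKO and 99067 to 101461 in WT in serum/LIF. One library stood apart: in WT after RA, replicate 2, the rRNA share of repeat reads was 41.7%, while it lay between 4.14% and 7.28% elsewhere. All values below are read counts that the authors divided by a size factor of each library. A read is assigned to a repeat name, not to a copy, and reads of genes that contain a repeat cannot be told apart from transcripts of the repeat itself. In bulk RNA, fewer cells with a transcript and less transcript per cell cannot be told apart either.

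Levels differed widely among the members. The median member had a mean of 119 normalized reads over the 12 libraries, 20 members had 1000 or more and 20 had fewer than 10. The internal sequence RLTR19-int alone held 17.2% of all member reads, followed by MMERVK10C-int with 5.66%, RLTR17B_Mm with 3.5%, MMERVK9C_I-int with 3.38% and RLTR20A4 with 2.89%. Together these 5 names held 32.6%. All members summed to 87460 ± 297 normalized reads in DKO and 86856 ± 1465 in WT after RA, and to 106664 ± 1371 in DKO and 107184 ± 1462 in WT in serum/LIF (SD, n = 3 each). The sums of the genotypes overlapped in each medium, while the RA libraries all lay below the serum/LIF libraries. Without RLTR19-int the sums after RA did not overlap, at 74924 to 75643 in DKO and 69899 to 73209 in WT, while those in serum/LIF still did, at 86252 to 87342 in DKO and 87308 to 87760 in WT. As a share of repeat reads outside rRNA, the members took 4.16% in DKO and 4.10% in WT after RA, and 4.86% in DKO and 5.02% in WT in serum/LIF. On this measure the genotypes overlapped after RA (4.13% to 4.20% in DKO and 4.04% to 4.13% in WT) and did not overlap in serum/LIF (4.84% to 4.88% in DKO and 4.97% to 5.04% in WT).

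A small number of these repeats differed between DKO and WT, in both directions. After RA, 17 of 231 members were higher and 14 lower in DKO than in WT at an adjusted p under 0.05 (limma on log2(value + 1), adjusted over 1170 repeats), where 5.47% of all tested repeats were higher and 5.56% lower. In serum/LIF, 9 were higher and 17 lower, where 5.56% of all repeats were higher and 4.27% lower. As shares of the 231 members these calls were 7.36% and 6.06% after RA, and 3.9% and 7.36% in serum/LIF. The median log2 fold change of the members was 0.04 after RA and -0.06 in serum/LIF, against 0.01 and 0.01 over all tested repeats. Calls past the threshold in both media numbered 15: 6 members were higher in both, 8 were lower in both, and RLTR11A2 was higher after RA and lower in serum/LIF. Calls in both media were not counted over all tested repeats, so this sharing is not shown to be particular to the members. One library decided part of these counts. Without replicate 2 of WT after RA, 11 members were higher after RA. Without replicate 2 of DKO in serum/LIF, 5 were higher and 11 lower in serum/LIF, and 11 were lower there without replicate 2 of WT in serum/LIF. In the authors' deposited table, at an adjusted p under 0.05, 15 members were higher and 16 lower after RA, and 8 were higher and 19 lower in serum/LIF.

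MMERVK10C-int was the most abundant member that was higher in DKO in both media. It had 8356, 8174 and 8404 normalized reads in DKO after RA, against 5137, 4479 and 5094 in WT after RA. Values in serum/LIF were 5780, 5696 and 5915 in DKO, against 3296, 3363 and 3144 in WT. The genotypes did not overlap in either medium. The mean was 1.70-fold higher in DKO after RA (log2 fold change 0.76 ± 0.04 (SE), adjusted p = 8.9e-13) and 1.77-fold higher in serum/LIF (0.83 ± 0.04, adjusted p = 2.5e-13). Its LTR RLTR10C did not pass the test: it averaged 444 normalized reads in DKO and 382 in WT after RA (log2 fold change 0.22 ± 0.12, adjusted p = 0.31), and 266 in DKO and 247 in WT in serum/LIF (0.11 ± 0.12, adjusted p = 0.69).

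RMER16-int, another internal sequence, was also higher in DKO in both media. It had 725, 793 and 675 normalized reads in DKO after RA, against 395, 416 and 484 in WT after RA. In serum/LIF the values were 2129, 2275 and 2544 in DKO, against 1486, 1469 and 1420 in WT. Every DKO library was above every WT library of the same medium, and the log2 fold change was 0.76 ± 0.08 after RA (adjusted p = 5.6e-08) and 0.66 ± 0.08 in serum/LIF (adjusted p = 8.1e-07).

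The widest relative difference was at RLTR46A2, an LTR of low abundance that lies outside the naming rule and was chosen after its values were seen. It had 71.0, 81.6 and 76.1 normalized reads in DKO after RA, against 8.24, 5.82 and 7.85 in WT after RA. Serum/LIF libraries held 64.6, 80.9 and 62.3 in DKO, against 11.7, 8.64 and 6.06 in WT. The genotypes were far apart in both media, and the medium made no called difference in either genotype. The means differed 10.4-fold after RA (log2 fold change 3.23 ± 0.31, adjusted p = 2.2e-08) and 7.86-fold in serum/LIF (2.87 ± 0.31, adjusted p = 2.3e-07). These values rest on few reads, 230 in the 3 DKO libraries and 21 in the 3 WT libraries after RA, and 199 in DKO and 30 in WT in serum/LIF.

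MurERV4_19-int was higher in DKO chiefly after RA. It had 1035, 955 and 1104 normalized reads in DKO after RA, against 594, 553 and 667 in WT after RA (log2 fold change 0.77 ± 0.08, adjusted p = 6.7e-08). In serum/LIF it had 631, 671 and 666 in DKO, against 592, 543 and 521 in WT (0.25 ± 0.08, adjusted p = 0.046), a call that was lost in 12 of 21 alternatives, among them leaving out any DKO library in serum/LIF or replicate 2 or 3 of WT in serum/LIF (0.21 to 0.28), and replicates 1 or 3 of DKO after RA or replicate 1 of WT after RA (0.25). The genotypes did not overlap in either medium. Further members higher in DKO after RA were RLTR44-int, with 208, 201 and 228 normalized reads against 113, 106 and 129 in WT (log2 fold change 0.87 ± 0.15, adjusted p = 0.00024), and RLTR42-int, with 1558, 1662 and 1607 against 1184, 1117 and 1357 in WT (0.40 ± 0.06, adjusted p = 9.4e-06). In serum/LIF RLTR12C had 1120, 1115 and 1117 normalized reads in DKO, against 725, 765 and 910 in WT (0.49 ± 0.08, adjusted p = 0.00021).

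Of the 8 members lower in DKO in both media, the LTR RLTR16B_MM had the most negative log2 fold change in each. It had 86.5, 126 and 100.9 normalized reads in DKO after RA, against 192, 230.5 and 189 in WT after RA. In serum/LIF it had 402, 412 and 467 in DKO, against 927, 1032 and 1068 in WT. All DKO libraries lay below all WT libraries in each medium, by a log2 fold change of -0.97 ± 0.12 after RA (adjusted p = 2e-06) and -1.24 ± 0.12 in serum/LIF (adjusted p = 5.3e-08). MLTR31F_MM and RLTR26 were lower in both media as well. MLTR31F_MM differed by -0.63 ± 0.15 after RA (adjusted p = 0.0058) and by -0.85 ± 0.15 in serum/LIF (adjusted p = 0.00031). RLTR26 had 169, 177 and 179 normalized reads in DKO after RA, against 251, 222 and 247 in WT, and 255, 308 and 274 in DKO in serum/LIF, against 382, 403 and 416 in WT. Its log2 fold change was -0.45 ± 0.10 after RA (adjusted p = 0.0039) and -0.52 ± 0.10 in serum/LIF (adjusted p = 0.0013).

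RLTR21 was lower in DKO in both media while RA raised it in both genotypes. It had 1173, 1071 and 1060 normalized reads in DKO after RA, against 1489, 1522 and 1409 in WT after RA, and 633, 610.0 and 613 in DKO in serum/LIF, against 845, 924 and 881 in WT. The genotype difference was -0.42 ± 0.06 after RA (adjusted p = 1.9e-05) and -0.51 ± 0.06 in serum/LIF (adjusted p = 1.4e-06) on the log2 scale. The largest source of member reads, RLTR19-int, was lower in DKO after RA, with 12105, 12278 and 12142 normalized reads against 15252, 15690 and 14104 in WT (log2 fold change -0.30 ± 0.05, adjusted p = 0.00042). In serum/LIF it did not pass the test, with 19061, 19191 and 20963 in DKO, against 18625, 19462 and 21031 in WT (0.00 ± 0.05, adjusted p = 0.98).

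**Figure D1:**
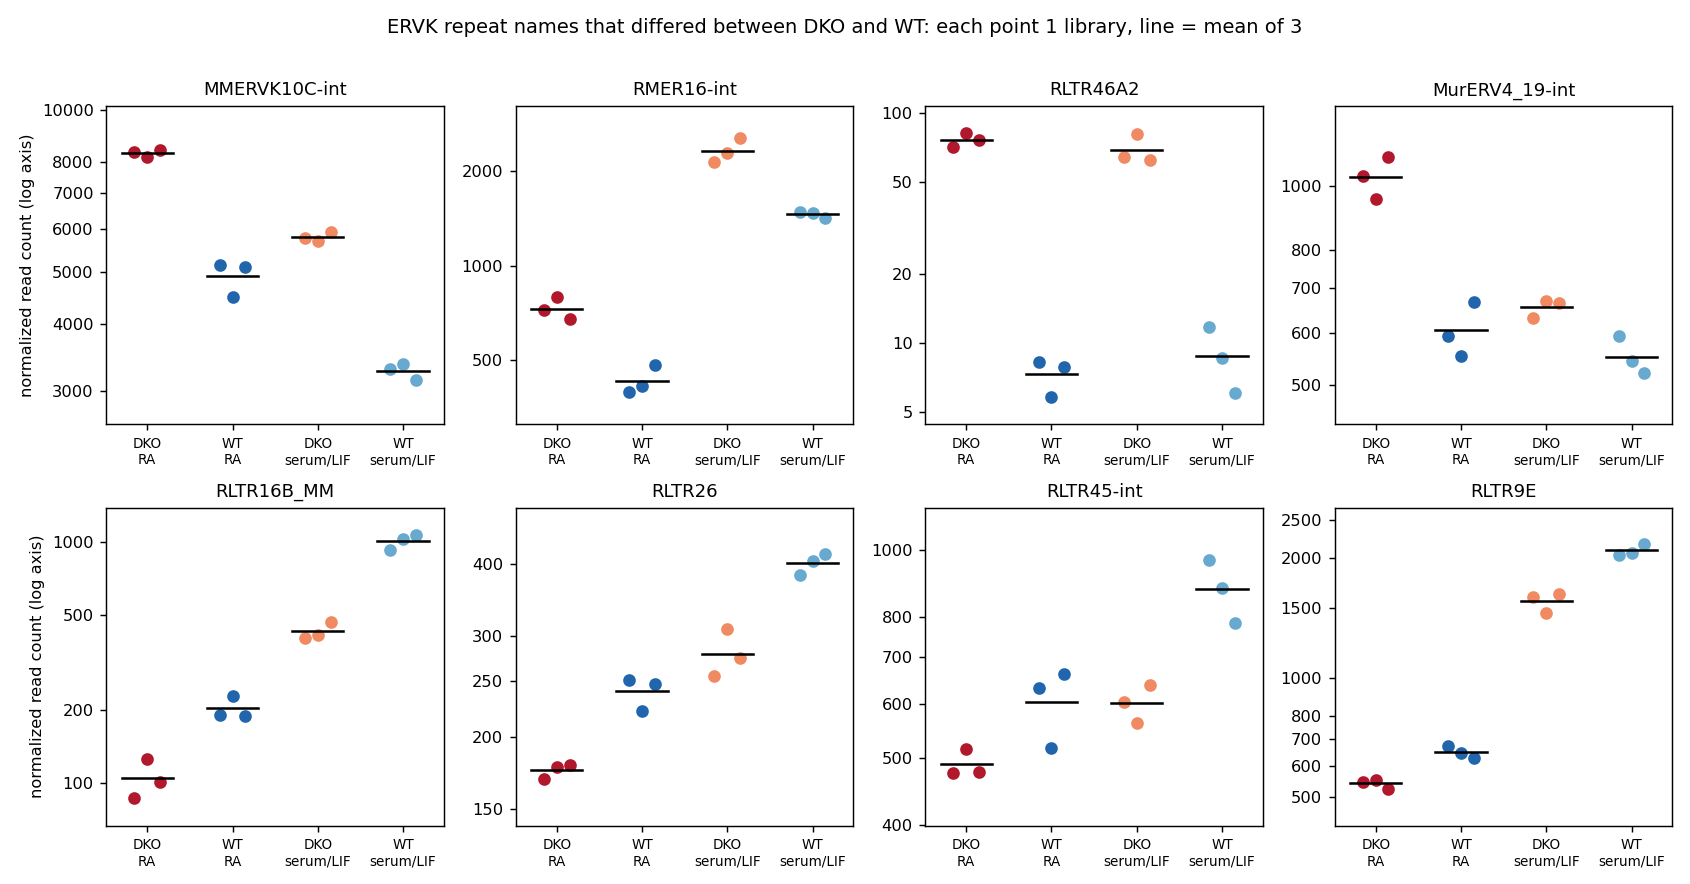
Normalized read counts (log axis) of 8 ERVK repeat names in DKO after RA, WT after RA, DKO in serum/LIF and WT in serum/LIF; each point is 1 library and each line the mean of 3. MMERVK10C-int, RMER16-int, RLTR46A2 and MurERV4_19-int (upper row) lie higher in DKO in both media, and RLTR16B_MM, RLTR26, RLTR45-int and RLTR9E (lower row) lie lower.

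**Figure D2:**
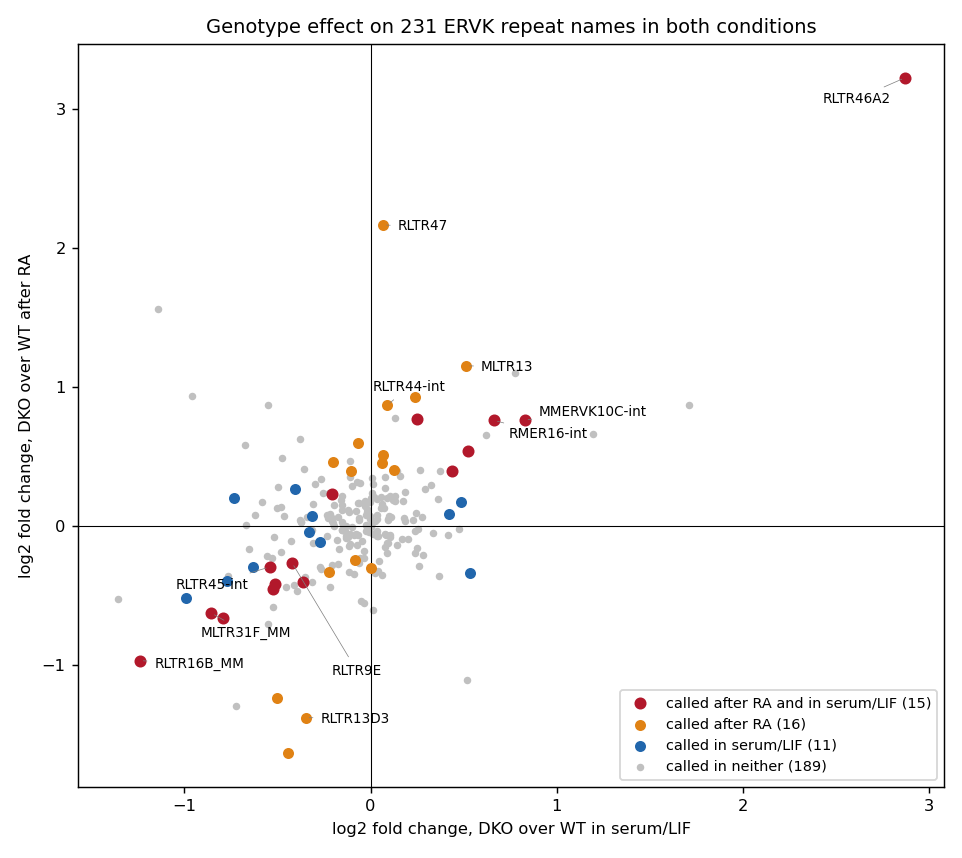
Log2 fold change of DKO over WT for 231 ERVK repeat names, in serum/LIF on the x axis and after RA on the y axis; each point is 1 repeat name, coloured by the comparisons in which it was called at an adjusted p under 0.05. The 189 names called in neither comparison gather around 0, the 15 called in both include MMERVK10C-int and RMER16-int at the upper right and RLTR16B_MM at the lower left, and RLTR46A2 stands alone at 2.87 in serum/LIF and 3.23 after RA.

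Markers of another cell type also differed between the genotypes. Over all tested genes, 17.8% were higher in DKO in serum/LIF and 22% after RA. All 5 fibroblast markers (Col1a1, Col1a2, Col3a1, Acta2 and Tagln) were higher in DKO in serum/LIF and 4 of 5 after RA. Their sum per library was 62264 to 64743 normalized reads in DKO and 48390 to 50163 in WT after RA, and 21846 to 23242 in DKO and 7128 to 7229 in WT in serum/LIF, with none at 0. The 3 endoderm markers (Sox17, Gata4 and Afp) summed to 283 to 319 in DKO and 118 to 126 in WT after RA, and to 39.0 to 49.6 in DKO and 24.3 to 43.9 in WT in serum/LIF. Of these 3, 2 were called higher in DKO after RA and 1 in serum/LIF, and Afp was at 0 in at least 1 library of each genotype in serum/LIF. RA raised all 5 fibroblast and all 3 endoderm markers in both genotypes, where it raised 40.2% of all tested genes in DKO and 41.4% in WT. Bulk RNA does not show which cells held these transcripts, and their part in the ERVK differences was not tested.

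Far more members differed between RA, given with LIF withdrawn, and serum/LIF than between DKO and WT. More of them were lower than higher after RA. In DKO, 46 of 231 members were higher and 70 lower after RA than in serum/LIF, where 23.4% of all tested repeats were higher and 22.9% lower. In WT, 38 were higher and 86 lower, where 24.7% of all repeats were higher and 25.3% lower. The members' median log2 fold change was -0.05 in DKO and -0.16 in WT, against 0.01 and -0.01 over all repeats. Of the calls, 30 members were higher and 63 lower in both genotypes. Calls in both genotypes were not counted over all tested repeats either. The split depended on the scaling. With the size factors of the gene table, which moved the median of all repeats to -0.24 in DKO and -0.34 in WT, 26 members were higher and 105 lower in DKO and 23 were higher and 133 lower in WT, so that higher calls made up 19.8% of calls in DKO against 39.7% in the main fit, and 14.7% in WT against 30.6%. The RA changes given below are therefore relative to the other repeats of the table.

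RLTR13G, MMERVK9C_I-int and ERVB7_1-LTR_MM had the most negative log2 fold changes of RA in both genotypes. MMERVK9C_I-int had 669, 546 and 582 normalized reads after RA in DKO, against 5396, 5585 and 5571 in serum/LIF. In WT it had 645, 634 and 706 after RA, against 6385, 5704 and 5879 in serum/LIF. RA and serum/LIF libraries were far apart in both genotypes, a 9.21-fold lower mean in DKO (log2 fold change -3.21 ± 0.06, adjusted p = 1.1e-23) and a 9.05-fold lower mean in WT (-3.18 ± 0.06, adjusted p = 1.4e-23), while the genotypes did not differ at the threshold in either medium (adjusted p = 0.16 after RA and 0.28 in serum/LIF). The LTR RLTR13G had 91.6, 90.7 and 108 normalized reads after RA in DKO, against 984, 1041 and 1017 in serum/LIF, and 86.5, 66.3 and 68.7 after RA in WT, against 788, 771 and 687 in serum/LIF. Its log2 fold change was -3.38 ± 0.11 in DKO (adjusted p = 1.9e-18) and -3.33 ± 0.11 in WT (adjusted p = 2.3e-18). ERVB7_1-LTR_MM fell by 2.92 ± 0.14 on the log2 scale in DKO (adjusted p = 2.3e-15) and fell by 2.96 ± 0.14 in WT (adjusted p = 1.5e-15). RLTR16B_MM and RMER16-int, which differed between the genotypes in opposite directions, both fell with RA: RLTR16B_MM had a log2 fold change of -2.04 ± 0.12 in DKO and -2.31 ± 0.12 in WT, and RMER16-int one of -1.66 ± 0.08 in DKO and -1.76 ± 0.08 in WT.

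One internal sequence rose steeply. ERVB4_1-I_MM-int had 496, 444 and 413 normalized reads after RA in DKO, against 22.9, 17.2 and 16.4 in serum/LIF. In WT it had 656, 670.4 and 819 after RA, against 44.5, 34.6 and 23.4 in serum/LIF. The means were 24-fold higher in DKO (log2 fold change 4.52 ± 0.19, adjusted p = 2e-16) and 21-fold higher in WT (4.39 ± 0.19, adjusted p = 3.4e-16). It was lower in DKO than in WT in both media, with a log2 fold change of -0.66 ± 0.19 after RA (adjusted p = 0.022) and -0.79 ± 0.19 in serum/LIF (adjusted p = 0.0069), but left the threshold after RA on leaving out replicate 2 or 3 of DKO after RA or replicate 3 of WT after RA (-0.56 to -0.65), and in serum/LIF without replicate 1 of WT in serum/LIF (-0.58). RLTR50B rose by 2.15 ± 0.22 in DKO (adjusted p = 8.7e-09) and by 1.90 ± 0.22 in WT (adjusted p = 5.2e-08) on the log2 scale. RLTR20A had 236, 228 and 242 normalized reads after RA in DKO, against 110.4, 84.0 and 67.7 in serum/LIF, and 299.7, 234 and 288 after RA in WT, against 73.0, 66.3 and 71.9 in serum/LIF. The groups did not overlap, with a log2 fold change of 1.45 ± 0.16 in DKO (adjusted p = 3.2e-08) and 1.94 ± 0.16 in WT (adjusted p = 1.3e-10). MMERVK10C-int also rose, by 0.52 ± 0.04 in DKO (adjusted p = 3.1e-10) and 0.58 ± 0.04 in WT (adjusted p = 2.9e-11).

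**Figure D3:**
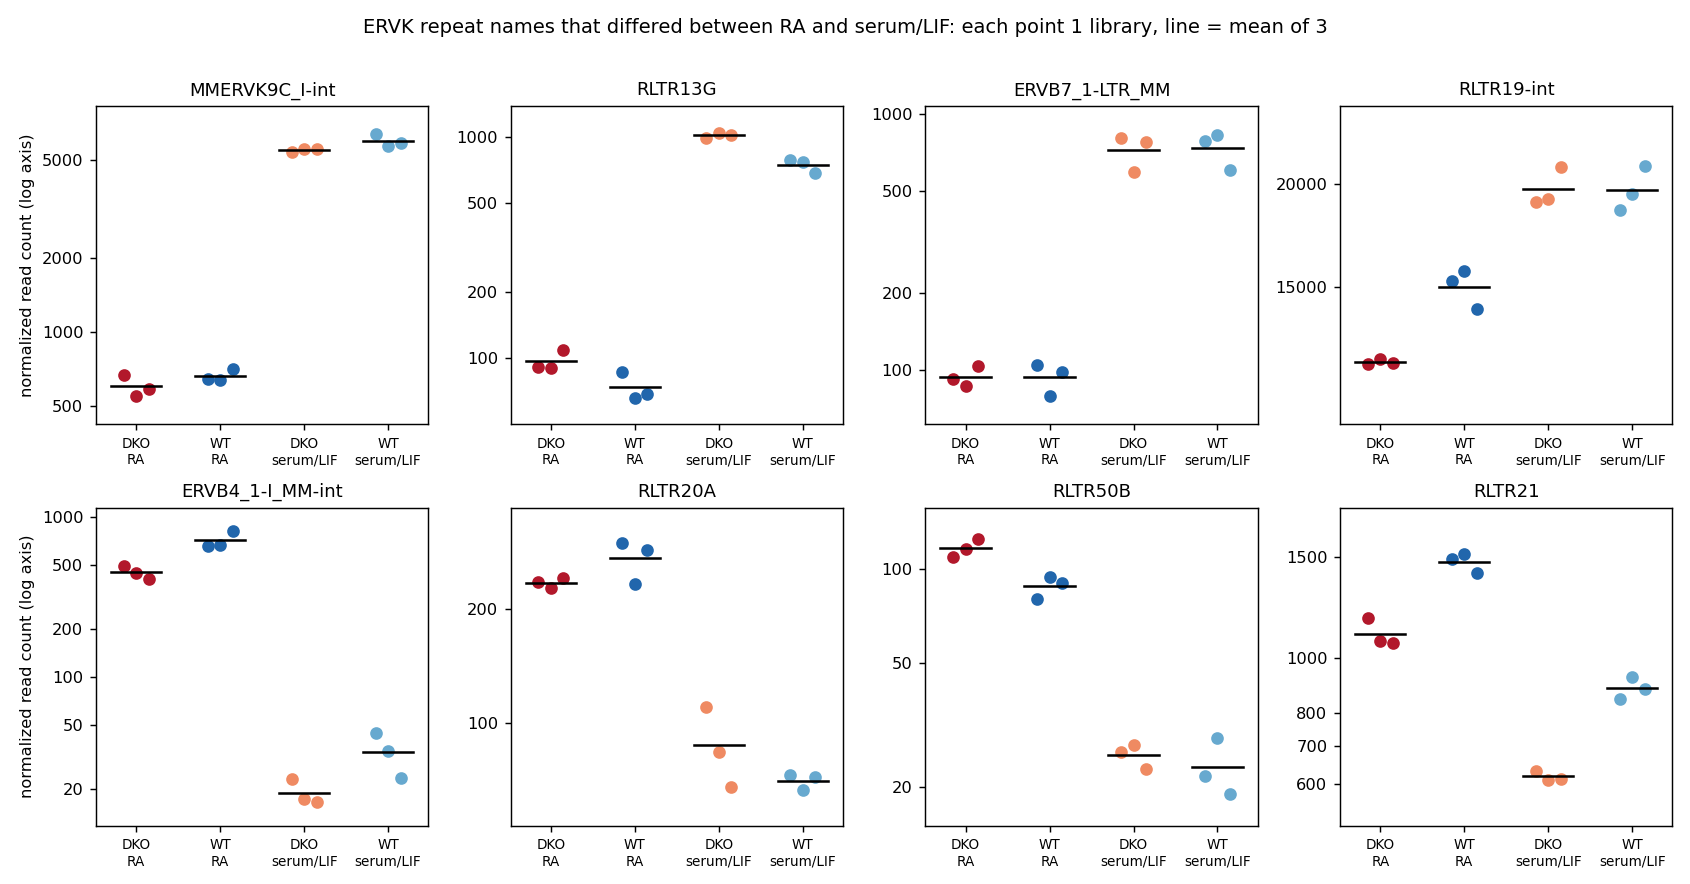
Normalized read counts (log axis) of 8 ERVK repeat names in DKO after RA, WT after RA, DKO in serum/LIF and WT in serum/LIF; each point is 1 library and each line the mean of 3. MMERVK9C_I-int, RLTR13G, ERVB7_1-LTR_MM and RLTR19-int (upper row) lie lower after RA in both genotypes, and ERVB4_1-I_MM-int, RLTR20A, RLTR50B and RLTR21 (lower row) lie higher.

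No test compared the 4 prefix groups, which are given here one by one. Over all tested repeats, RA raised 23.4% and lowered 22.9% in DKO and raised 24.7% and lowered 25.3% in WT, and the RLTR13 counts and the higher RLTR10 counts given here are close to these shares. RLTR9, whose elements are known as ES cell enhancers, had 12 tested members (RLTR9A4 was below the filter), of which 6 were lower after RA in each genotype and the rest were not called. RLTR13 had 22 tested members (RLTR13D was below the filter), with 7 higher and 4 lower in DKO and 6 higher and 7 lower in WT. Both RLTR45 names were lower in both genotypes. Of the 10 RLTR10 names, 3 were higher and 1 lower in each genotype. The summed level of the RLTR9 names was 1238 normalized reads in DKO and 1365 in WT after RA, and 2559 in DKO and 3288 in WT in serum/LIF. RLTR10 summed to 1787 in DKO and 1613 in WT after RA, and to 1453 in DKO and 1477 in WT in serum/LIF.

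Within RLTR9, 1 name dominated the level. RLTR9E had 547, 553 and 522 normalized reads in DKO after RA, against 673, 647 and 627 in WT after RA. In serum/LIF it had 1601, 1459 and 1629 in DKO, against 2040.0, 2066 and 2171 in WT. DKO lay below WT in each medium and RA below serum/LIF in each genotype, with no overlap. The log2 fold change of DKO over WT was -0.26 ± 0.06 after RA (adjusted p = 0.0038) and -0.42 ± 0.06 in serum/LIF (adjusted p = 2.3e-05), the one after RA not past the threshold with the size factors of the gene table (-0.20, adjusted p = 0.065). RA gave a log2 fold change of -1.53 ± 0.06 in DKO (adjusted p = 6.6e-17) and -1.69 ± 0.06 in WT (adjusted p = 5.8e-18). RLTR9D was lower after RA (-0.87 ± 0.09 in DKO and -0.99 ± 0.09 in WT) but did not pass the genotype test in either medium (adjusted p = 0.91 after RA and 0.34 in serum/LIF). RLTR9C was the other RLTR9 name called lower in DKO, in serum/LIF alone, with 61.5, 51.6 and 40.4 normalized reads in DKO against 98.2, 99.9 and 106 in WT (log2 fold change -0.99 ± 0.32, adjusted p = 0.049). That call was lost in 10 of 21 alternatives, among them leaving out any one of the 6 serum/LIF libraries (-0.83 to -1.13). The remaining 9 tested names were not called between the genotypes in either medium.

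RLTR13 held names that went both ways. Besides RLTR13G, RA lowered RLTR13E (log2 fold change -0.83 in DKO and -1.03 in WT) and RLTR13B2 (-1.25 in DKO and -0.86 in WT). RA raised RLTR13B3 by 0.89 in DKO and 1.06 in WT, RLTR13A2 by 1.03 in DKO and 1.06 in WT and RLTR13B1 by 0.65 in DKO and 0.63 in WT on the log2 scale. The rise of RLTR13B1 in WT did not pass the threshold with the size factors of the gene table. RLTR13D5, the trophoblast enhancer, had 108, 132 and 114 normalized reads in DKO and 142, 106 and 104 in WT after RA, and 110.4, 111 and 135 in DKO and 116, 118 and 120.3 in WT in serum/LIF. Its groups overlapped in every comparison and none was called (adjusted p of 0.91 to 0.99 in the 4 comparisons). RLTR13D3 was the RLTR13 name that was lower in DKO after RA, with 50.5, 68.5 and 42.8 normalized reads against 158, 137 and 125 in WT (log2 fold change -1.38 ± 0.23, adjusted p = 0.00014). In serum/LIF it had 53.1, 27.3 and 33.9 in DKO, against 47.8, 49.0 and 44.2 in WT, and was not called (adjusted p = 0.41). RA raised it in WT by 1.55 ± 0.23 (adjusted p = 4.1e-06), while the 0.52 ± 0.23 in DKO did not pass the test (adjusted p = 0.075), nor did the difference between the genotypes in this response (-1.03 ± 0.33, adjusted p = 0.066). The interaction passed the threshold in 5 of 21 alternatives, edgeR and DESeq2 among them (-0.96 to -1.24), and the response in DKO in 3 (0.58 to 0.78).

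The genotype calls in RLTR13G and RLTR13C1 were less firm. RLTR13G was higher in DKO by 0.39 ± 0.11 after RA (adjusted p = 0.024) and 0.44 ± 0.11 in serum/LIF (adjusted p = 0.014). After RA that call was lost with edgeR (0.40) and DESeq2 (0.39) and on leaving out replicate 3 of DKO after RA (0.31) or replicates 2 (0.32) or 3 (0.35) of WT after RA, and in serum/LIF without replicate 2 of DKO (0.42) or replicate 3 of WT (0.38). RLTR13C1 was higher in DKO after RA by 0.40 ± 0.12 (adjusted p = 0.025) and left the threshold without replicates 1 or 3 of either genotype after RA (0.34 to 0.40).

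RLTR45-int was lower in DKO and lower after RA. It had 476, 516 and 478 normalized reads in DKO after RA, against 631, 518 and 662 in WT after RA, and 603, 561 and 639 in DKO in serum/LIF, against 968, 881 and 785 in WT. The genotypes did not overlap, although the nearest pair after RA lay at 516 and 518. In serum/LIF the log2 fold change was -0.54 ± 0.09 (adjusted p = 0.00018). After RA it was -0.29 ± 0.09 (adjusted p = 0.034), a call lost with the size factors of the gene table (-0.23) and on leaving out replicate 2 of WT in serum/LIF (-0.29), replicates 1 (-0.27) or 3 (-0.28) of DKO after RA, or replicates 1 (-0.26) or 3 (-0.22) of WT after RA. Its LTR, RLTR45, was lower after RA, by a log2 fold change of -0.43 ± 0.14 in DKO (adjusted p = 0.011, and 0.063 without replicate 1 of DKO in serum/LIF) and -0.63 ± 0.14 in WT (adjusted p = 0.00041), and was not called between the genotypes (adjusted p = 0.67 after RA and 0.18 in serum/LIF).

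In RLTR10, RLTR10C and RLTR10D were called under RA in both genotypes and 4 other names in 1 genotype each. RLTR10C had 402, 509 and 421 normalized reads after RA in DKO, against 262, 297 and 237 in serum/LIF, and 433, 335 and 377 after RA in WT, against 209, 264 and 269 in serum/LIF. Both genotypes were higher after RA without overlap, by 0.74 ± 0.12 in DKO (adjusted p = 1.9e-05) and 0.62 ± 0.12 in WT (adjusted p = 0.00013). RLTR10D rose by 1.10 ± 0.16 in DKO (adjusted p = 2.1e-06) and 0.71 ± 0.16 in WT (adjusted p = 0.00044). RLTR10-int, the most abundant RLTR10 name, was called higher after RA in DKO (0.25 ± 0.09, adjusted p = 0.024), but its value was -0.000214 with the size factors of the gene table, 0.17 without replicate 2 of DKO in serum/LIF and 0.19 without replicate 2 of DKO after RA. In WT, RLTR10 was higher after RA (0.35 ± 0.13, adjusted p = 0.032), a call lost with the size factors of the gene table (0.02) and on leaving out replicates 1 (0.33) or 3 (0.26) in serum/LIF or replicates 2 (0.32) or 3 (0.33) after RA. RLTR10A was lower after RA in WT (-0.51 ± 0.16, adjusted p = 0.012), lost without replicates 1 (-0.46) or 2 (-0.44) in serum/LIF or replicate 2 (-0.42) after RA. RLTR10E was lower after RA in DKO (-0.56 ± 0.19, adjusted p = 0.016), lost without replicate 1 in serum/LIF (-0.53) or replicate 3 after RA (-0.49). RLTR10B2 was the RLTR10 name called between the genotypes, higher in DKO after RA by 0.93 ± 0.26 (adjusted p = 0.019), which left the threshold without replicate 2 of DKO (0.77) or replicate 2 of WT (0.61) after RA.

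**Figure D4:**
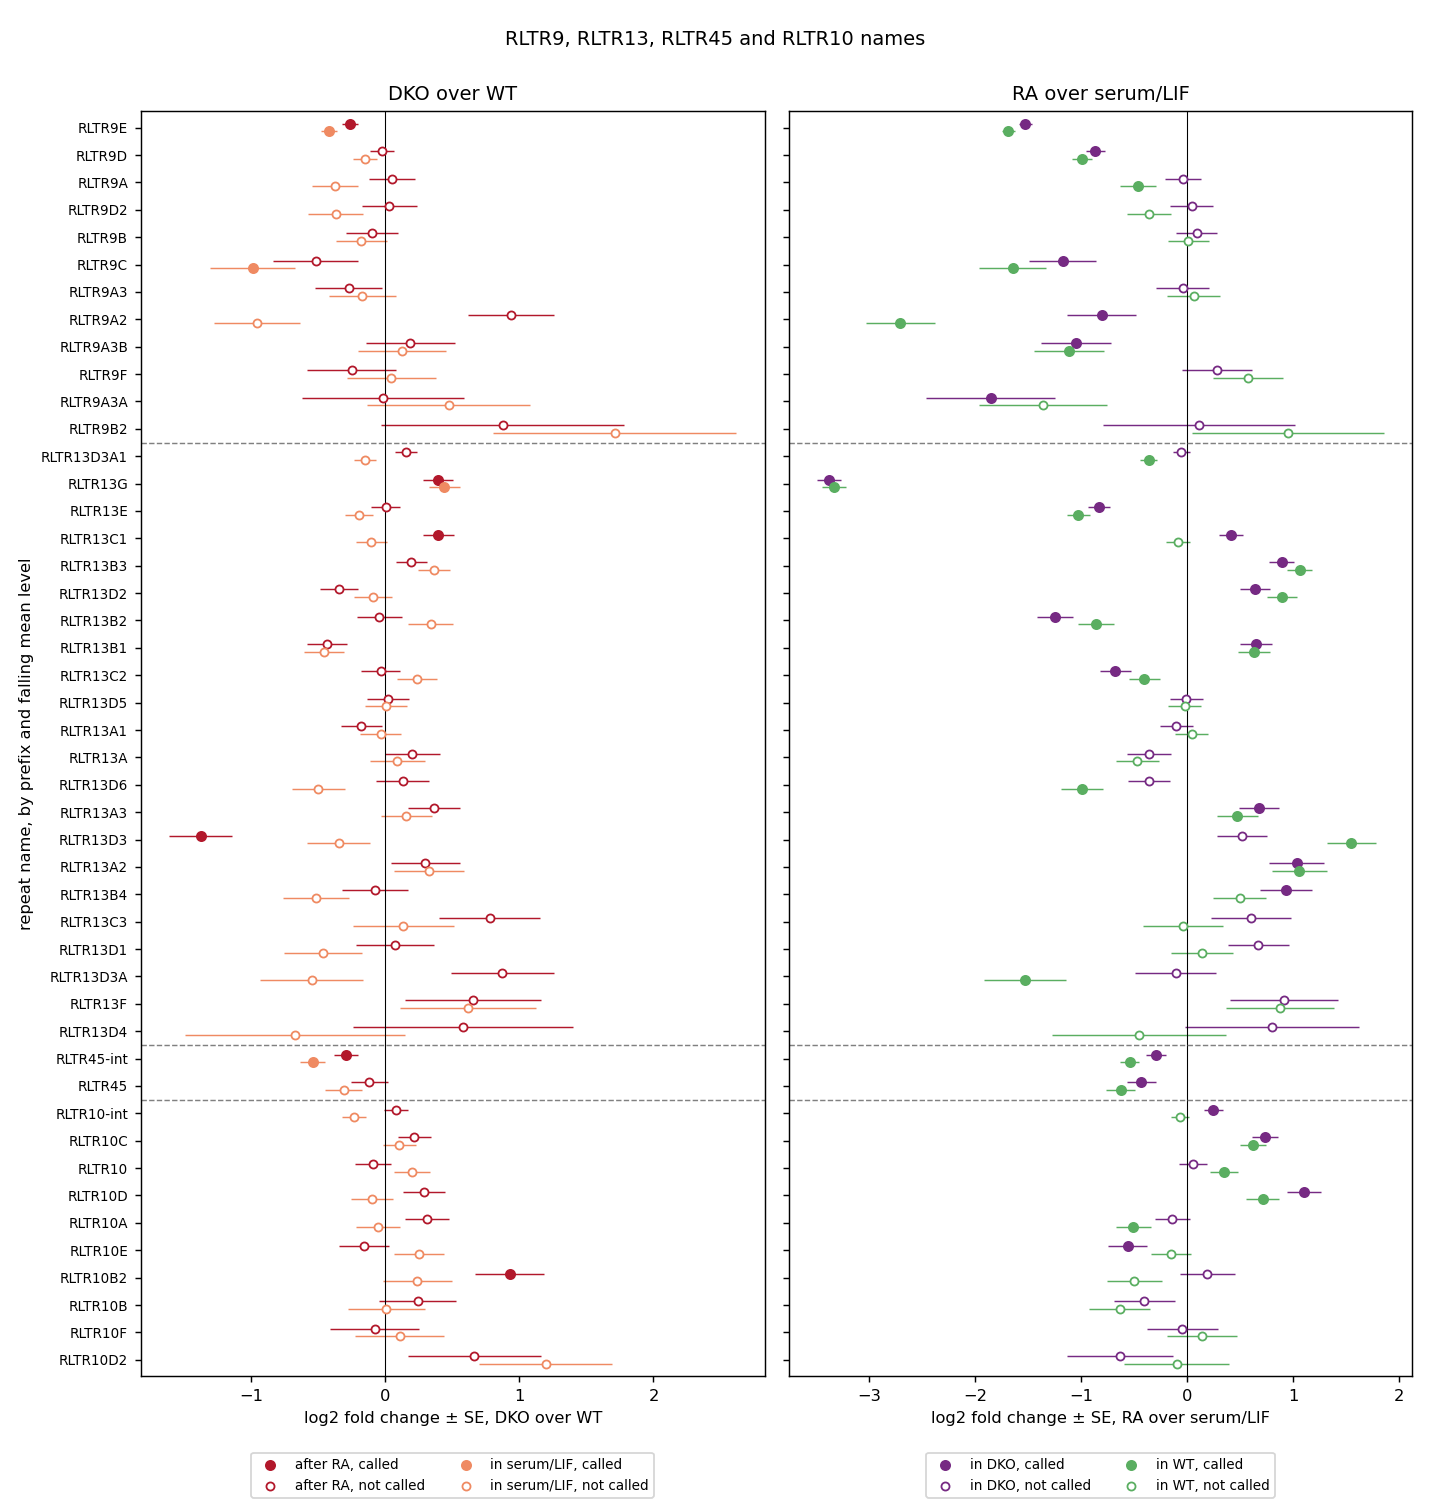
Log2 fold change with its SE for the 46 tested RLTR9, RLTR13, RLTR45 and RLTR10 names, in rows by prefix and falling mean level; the left panel gives DKO over WT after RA and in serum/LIF, the right panel RA over serum/LIF in DKO and in WT, and filled points passed an adjusted p under 0.05. Filled points are few in the left panel, with RLTR13D3 lowest at -1.38 after RA. In the right panel the filled RLTR9 and RLTR45 points all lie below 0 and those of RLTR13 lie on both sides, with RLTR13G at -3.38 in DKO and -3.33 in WT.

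LTRs and their internal sequences were compared in 9 pairs, 8 of the same name and RLTR10C with MMERVK10C-int. Between the genotypes the internal sequence alone was called in 6 pairs after RA and in 4 in serum/LIF, and the other pairs had no call. Some of these calls were weak. That of RMER17A-int in serum/LIF was lost in 17 of 21 alternatives, edgeR and DESeq2 among them. Those of RLTR45-int and RMER17C-int after RA were lost in 6 each. An LTR without a call and with fewer reads than its internal part, such as RLTR42 or RLTR10C, is not shown to be unchanged. Under RA, in each genotype, both parts were called in the same direction in 3 pairs (RLTR45, RMER17A and RLTR10C with MMERVK10C-int), in opposite directions in 1, and 1 part alone was called in 5. RMER16-int and MMERVK10C-int were higher in DKO in both media with no call for RMER16 (log2 fold change 0.04 ± 0.25 after RA and 0.18 ± 0.25 in serum/LIF) or RLTR10C. RLTR42-int was higher in DKO after RA, where RLTR42 averaged 30.0 normalized reads in DKO and 49.6 in WT (-0.71 ± 0.24, adjusted p = 0.061). RLTR18 and RLTR18-int were called in opposite directions under RA: RLTR18 fell (-0.37 ± 0.10 in DKO and -0.31 ± 0.10 in WT), and RLTR18-int rose by 0.34 ± 0.06 in DKO and 0.50 ± 0.06 in WT, the rise in DKO not past the threshold with the size factors of the gene table (0.09) and the fall in WT not past it when replicate 1 of WT after RA was left out (-0.26). Of the 31 tested internal parts, 7 were higher and 5 lower in DKO after RA, and 5 were higher and 4 lower in serum/LIF. These are 22.6% and 16.1% after RA, against 5.47% and 5.56% of all tested repeats, and 16.1% and 12.9% in serum/LIF, against 5.56% and 4.27%. The difference was not tested, and the internal parts were not matched to the other repeats for read depth. Of the 154 tested members with a mean of 100 or more in a group, 8.44% were higher and 7.79% lower in DKO after RA. In serum/LIF these shares were 5.19% and 10.4%.

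The difference between DKO and WT was itself not the same in the 2 media for some members. The interaction, taken as the DKO over WT log2 fold change after RA less the one in serum/LIF, was called positive for 10 members and negative for 3, where it was positive for 2.82% and negative for 3.85% of all tested repeats. Single libraries moved these counts. The positive count was 5 without replicate 1 of DKO in serum/LIF, replicates 1 or 3 of WT in serum/LIF or replicate 2 of WT after RA, 6 without replicates 2 or 3 of DKO after RA or replicate 1 of WT after RA, and 15 when replicate 3 of WT after RA was left out. The negative count was 0 without replicate 1 of WT after RA, 1 without replicate 1 of DKO or of WT in serum/LIF or replicate 3 of DKO after RA, 2 without replicate 2 of WT in serum/LIF, and 5 without replicate 3 of WT in serum/LIF. Called in all 21 alternatives were RLTR9A2, MLTR25A, MurERV4_19-int and RLTR11A2, all positive.

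RLTR9A2 had 31.9, 28.2 and 13.3 normalized reads in DKO after RA, against 12.4, 10.5 and 11.8 in WT after RA. In serum/LIF the order was the opposite, with 27.1, 52.6 and 48.1 in DKO, against 70.5, 88.3 and 84.0 in WT. The genotypes did not overlap in either medium. Neither difference passed the test alone (log2 fold change 0.94 ± 0.32, adjusted p = 0.062 after RA, and -0.96 ± 0.32, adjusted p = 0.061 in serum/LIF), while the interaction was 1.90 ± 0.46 (adjusted p = 0.01). The genotype difference did pass it in 4 of 21 alternatives after RA (0.94 to 1.31), DESeq2 among them, and in 6 in serum/LIF (-0.82 to -0.997), edgeR and DESeq2 among them. MLTR25A had 308, 298 and 301 normalized reads in DKO after RA, against 268, 209.5 and 283 in WT, and 748, 792 and 687 in DKO in serum/LIF, against 983, 951 and 1016 in WT. Its interaction was 0.67 ± 0.13 (adjusted p = 0.0022). RLTR11A2 had 645, 653 and 693 normalized reads in DKO after RA, against 560.2, 555 and 577 in WT, and 889.5, 843 and 890.2 in DKO in serum/LIF, against 1039.7, 935 and 1061 in WT. DKO lay above WT after RA and below it in serum/LIF without overlap, and the interaction was 0.44 ± 0.10 (adjusted p = 0.0043). Its genotype calls in single media were less firm, lost in 4 of 21 alternatives after RA and in 12 in serum/LIF, all or most of them with 1 library left out. For MurERV4_19-int, higher in DKO in both media, it was 0.52 ± 0.11 (adjusted p = 0.0042).

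**Figure D5:**
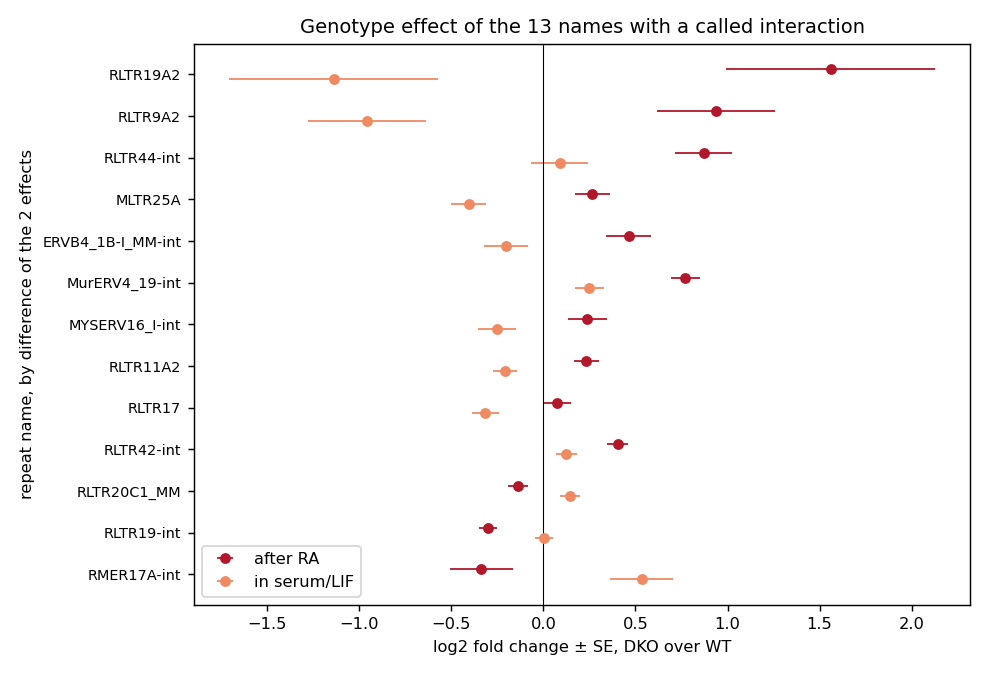
Log2 fold change of DKO over WT with its SE, after RA and in serum/LIF, for the 13 ERVK repeat names with a called interaction, in rows from the most positive to the most negative difference. RLTR19A2, RLTR9A2 and RLTR11A2 are among the names that lie on opposite sides of 0 in the 2 media. The 3 lowest rows, RLTR20C1_MM, RLTR19-int and RMER17A-int, are those with a lower genotype effect after RA.

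For other LTR families the counts are set beside these without a test. Of 29 tested ERVK names left out here (IAP, ETn, RLTRETN and MMETn), 11 were higher and 1 lower in DKO after RA, and 6 were higher in serum/LIF. Of 95 ERV1 names, 7 were higher and 9 lower after RA, and 9 were higher and 8 lower in serum/LIF. Of 90 ERVL names, 2 were higher and 6 lower after RA, and 0 were higher and 5 lower in serum/LIF. Of 87 ERVL-MaLR names, 3 were higher and 7 lower after RA, and 2 were higher and 10 lower in serum/LIF. Over all tested repeats, 5.47% were higher and 5.56% lower after RA, and 5.56% were higher and 4.27% lower in serum/LIF.

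Genes of the silencing pathway were measured in the gene table of the same libraries. The list held 31 genes. After RA, 11 of 31 were higher and 4 lower in DKO, where 22% of all tested genes were higher and 20.7% lower. In serum/LIF, 6 were higher and 8 lower, where 17.8% of all genes were higher and 15.4% lower. RA lowered 22 of the 31 and raised 5 in DKO, and lowered 25 and raised 4 in WT, where it lowered 38.2% and raised 40.2% of all genes in DKO and lowered 39.2% and raised 41.4% in WT. Of the core genes, Setdb1 averaged 4141 normalized reads in DKO and 4290 in WT after RA, and 6457 in DKO and 6244 in WT in serum/LIF, and was not called (log2 fold change -0.05 ± 0.04 and 0.05 ± 0.04). Trim28 differed by 0.09 ± 0.03 after RA (adjusted p = 0.031) and by -0.07 ± 0.03 in serum/LIF (adjusted p = 0.11). Atf7ip, a partner of SETDB1, was lower in DKO in serum/LIF (-0.58 ± 0.06, adjusted p = 1e-07), and so was Dnmt3a, a de novo DNA methyltransferase (-0.45 ± 0.04, adjusted p = 5.3e-10). Dnmt3l, the cofactor of the de novo methyltransferases, was higher in DKO, by 0.72 ± 0.04 after RA (adjusted p = 1.3e-12) and 0.52 ± 0.04 in serum/LIF (adjusted p = 5.9e-10). Suv39h1, an H3 lysine 9 methyltransferase, was lower in DKO after RA (-0.27 ± 0.05, adjusted p = 0.00012) and higher in serum/LIF (0.59 ± 0.05, adjusted p = 1.5e-09). Zfp809, a KRAB zinc finger protein that silences retroviral sequences, was higher after RA, with 1296 normalized reads in DKO against 677 in WT (0.94 ± 0.08, adjusted p = 2.7e-09), and Chaf1a, a subunit of the histone chaperone CAF-1, was lower, with 5760 in DKO against 9237 in WT (-0.68 ± 0.04, adjusted p = 9.9e-13).

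The pluripotency factors known to bind LTRs in ES cells were a list of 10 genes. All 10 fell with RA in both genotypes. In DKO the residual level after RA was higher for 9 of 10, where 22% of all genes were higher. Pou5f1 averaged 1230.4 normalized reads in DKO and 428 in WT after RA, against 30891 in DKO and 33444 in WT in serum/LIF (log2 fold change between the genotypes after RA 1.52 ± 0.05, adjusted p = 2.4e-17). Esrrb averaged 439.6 in DKO and 180.4 in WT after RA (1.27 ± 0.07, adjusted p = 1.5e-12). In serum/LIF 5 of 10 were lower in DKO, where 15.4% of all genes were lower, with Tfcp2l1 at 2359 normalized reads against 4647 in WT (-0.98 ± 0.06, adjusted p = 3.6e-12). Of the 3 trophoblast factors, Eomes was higher in DKO after RA (0.82 ± 0.19, adjusted p = 0.00098) and in serum/LIF (0.72 ± 0.19, adjusted p = 0.004), and Cdx2 and Elf5 were not called in either medium. Both had few reads, with group means of 15.4 to 30.0 normalized reads for Cdx2 and 5.01 to 13.3 for Elf5, and are not shown to be unchanged. The interaction was called for Elf5 (2.39 ± 0.87, adjusted p = 0.039). RA lowered 1 of the 3 in DKO and 2 in WT. The part of any of these genes in the ERVK levels was not tested.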

How the data were processed

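The 12 libraries (3 per group) were sequenced as paired-end reads, per the labels. The labels conflict on the material: the molecule and library source fields say genomic, while the extract protocol describes total RNA, and the values were read as RNA. Tools listed in the submitters' processing notes are STAR 2.7.11b, Trim Galore 0.6.10, DESeq2 1.44.0, Subread 2.0.6 and featureCounts, with the build mm10. How strand and multiply mapped reads were handled is not given in those sources. The deposited library columns hold a signal: whole reads divided by a size factor of the library (whole within 0.01 for 100% of values). The repeat and gene tables have separate size factors. Per the file headers, the deposited log2 fold changes, p-values and score (the Wald statistic) are the authors'; signs and adjusted p-values were used to count calls, where 221 and 205 members had an adjusted p in serum/LIF and after RA.

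Values were transformed as log2(value + 1), kept at 10 or more in at least 3 libraries (1170 of 1387 repeats, 15750 of 17901 genes) and tested with limma 3.58.1 in R 4.3.3 (trend and robust settings, 1 mean per group, all 12 libraries, Benjamini-Hochberg adjustment over the table). SE comes from the fit. A plain fold is the ratio between group means. Calls use an adjusted p under 0.05. The test was tried on simulated data first. Alternatives were pseudocounts of 0.5 and 10, no filter or one at 50, the gene table's size factors, scaling to repeat reads outside rRNA, edgeR 4.0.16 and DESeq2 1.42.0 on recovered reads, a replicate block and leaving out each library. Repeat names were taken per prefix and over all members. They were chosen by level, by the largest called changes (the higher group's mean at least 100), and by LTR and internal pairs. Genes were taken by the smallest adjusted p per list, and the text names part of this choice. Setdb1 was named outside it. Repeats named outside their rule were RLTR46A2, RLTR21, RLTR9D, RLTR10B2, RLTR13A2, RLTR13B1, RLTR13B2, RLTR13D5 and RLTR13E. So were RLTR9A2, RLTR11A2, RLTR17 and RLTR19A2, which had a called interaction. Members and lists were chosen with earlier results of these data known.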

Additional observations from a re-analysis of the deposited data

Results flagged for a closer look

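In all, 13 member names were picked out because the difference between DKO and WT was not the same in the 2 media. The measure was the interaction (the DKO over WT log2 fold change after RA less the one in serum/LIF, limma, adjusted p under 0.05 over all tested repeats). It was 2.7 for RLTR19A2, 1.90 for RLTR9A2, 0.78 for RLTR44-int, 0.67 for MLTR25A, 0.67 for ERVB4_1B-I_MM-int, 0.52 for MurERV4_19-int, 0.49 for MYSERV16_I-int, 0.44 for RLTR11A2, 0.39 for RLTR17 and 0.28 for RLTR42-int. It was -0.28 for RLTR20C1_MM, -0.30 for RLTR19-int and -0.87 for RMER17A-int. RLTR19A2 rests on few reads, with 10.3, 21.2 and 5.71 normalized reads in DKO after RA, against 4.12, 1.16 and 4.91 in WT after RA, and 4.17, 19.2 and 12 in DKO in serum/LIF, against 26.9, 22.1 and 21.6 in WT. Its call was lost in 9 of 20 alternatives, among them leaving out any one of the WT libraries in serum/LIF.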

How the results depend on the processing

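A check of single values covered the repeats taken by the naming rule and every member with a genotype or interaction call. The counts of this check leave out RLTR9D, RLTR13A2, RLTR13B1, RLTR13B2, RLTR13D5 and RLTR13E. The RA calls of RLTR9D, RLTR13A2, RLTR13B2 and RLTR13E were kept in all 21 alternatives in both genotypes. That of RLTR13B1 was kept in all 21 in DKO, and in WT it was lost with the size factors of the gene table. RLTR13D5 had no call to follow. Of 171 called values of the covered repeats, 116 stayed past the threshold in the same direction in all alternatives that gave a value. In 244 of 3586 single alternatives a value fell below the threshold. Of 3749 alternatives of values not called, 63 brought one past it. With the size factors of the gene table, 4 values turned their direction: ERVB4_1B-I_MM-int in WT under RA to -0.00165, RLTR10-int in DKO under RA to -0.000214, and RLTR20A4 to -0.12 in DKO and -0.14 in WT under RA. The same factors moved the members called under RA to 26 higher in DKO and to 23 higher and 133 lower in WT, and the interaction to 16 positive and 1 negative; the cause was not tested. They gave 20 higher and 10 lower in DKO after RA (66.7% higher, against 54.8%). Scaling to repeat reads outside rRNA gave 6 higher and 23 lower in DKO in serum/LIF (20.7% higher, against 34.6%) and 15 positive and 2 negative interactions (88.2% positive, against 76.9%; 94.1% with the gene table's factors). Leaving out 1 library at a time gave 11 to 17 members higher and 11 to 16 lower in DKO after RA, 5 to 10 higher and 11 to 18 lower in serum/LIF, 41 to 46 higher and 59 to 71 lower under RA in DKO, 32 to 39 higher and 78 to 88 lower in WT, and 5 to 15 positive and 0 to 5 negative interactions. Same-numbered libraries did not deviate together over the tested repeats (correlations of -0.067 to 0.054 over 18 pairs). This cannot exclude a link that is weak or limited to few repeats. The main fit used no pairing. With a replicate block 16 were higher and 14 lower in DKO after RA, 7 and 16 in serum/LIF, 45 and 69 under RA in DKO, 37 and 87 in WT, and 8 interactions were positive and 3 negative. Names with few reads, such as RLTR46A2 and RLTR19A2, are limited by depth.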
